A study of Mus musculus with 104 samples.

Results

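Vasoactive intestinal peptide (VIP), pituitary adenylate cyclase-activating polypeptide (PACAP), prokineticin 2, neuromedin S and gastrin-releasing peptide are secreted peptides that neurons of the suprachiasmatic nucleus (SCN), or the retinal cells that innervate it, use as signals. The set described here holds the genes for these peptides and for the VIP, PACAP and prokineticin receptors, taken by name. It lists 9 genes (Vip, Vipr1, Vipr2, Adcyap1, Adcyap1r1, Prok2, Prokr2, Nms and Grp), of which 8 were measured among 18193 genes in all. No probe set of the array was assigned to Nms in the annotation used, and it was not analysed here. Each gene was read from 1 probe set, the one with the highest mean over all arrays among those assigned to a single gene symbol, and was compared across the means of 52 regions.

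The SCN is the master circadian pacemaker of mammals. VIP made by neurons of its ventral part acts on the receptor VPAC2 (encoded by Vipr2) to keep SCN neurons synchronized, and gastrin-releasing peptide is made in the same part. Prokineticin 2 is a rhythmic output signal of the SCN that acts through the receptor encoded by Prokr2. PACAP (Adcyap1) is a close relative of VIP that shares the receptors VPAC1 (Vipr1) and VPAC2, while its own receptor PAC1 (Adcyap1r1) binds PACAP far better than VIP. These peptide receptors couple to G proteins, and VPAC1, VPAC2 and PAC1 raise cyclic AMP.

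The study profiled 52 regions of the mouse nervous system, pituitary, pineal gland and retina on Affymetrix expression arrays, with 2 arrays per region. All samples came from male Balb/c mice of 7 to 8 weeks kept on a 12-hour light and dark cycle; per the labels, tissue was taken in that cycle or in constant darkness, without saying which for a given array. Regions were punched from frozen slices 0.5 mm thick, and punches from 6 times of day, 4 hours apart, were pooled, so that each value is an average over the day and a rhythm cannot be seen. The 2 samples of a region are described as independent, but the labels do not say that separate animals were used, so each p below measures the spread between these arrays.

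The groups compared were the SCN, the 11 other hypothalamic regions (medial preoptic area, supraoptic nucleus, paraventricular nucleus, ventral and dorsal subparaventricular zone, dorsomedial, ventromedial and arcuate nuclei, lateral hypothalamus, mammillary body and median eminence), and 8 regions of cortex and hippocampus (retrosplenial, motor, cingulate and piriform cortex, ventral subiculum, CA1, CA2/CA3 and dentate gyrus). Of 16 genes known from SCN neurons and their clock, 4 (Lhx1, Six3, Gpr176 and Syt10) had their highest mean of the 52 regions on the arrays labelled SCN, and the other 12 had it elsewhere, among them Avp in the supraoptic nucleus, Six6 in the pituitary and Rgs16 in the lateral geniculate nucleus. The arrays labelled lateral hypothalamus had low levels of Hcrt (7.55) and Pmch (7.70), whose highest means were in the dorsomedial nucleus (11.11 and 13.98), and the retina arrays held pituitary hormone mRNA (Gh at 14.69 in retina and 14.70 in pituitary). The genes lie, on GRCm38.p6 as RefSeq annotates it, at chr10:5639193-5647617 (Vip, probe set 1428664_at), chr17:93198245-93206541 (Adcyap1, 1423427_at), chr6:99711299-99726392 (Prok2, 1419681_a_at), chr9:121642716-121672954 (Vipr1, 1423004_at), chr12:116077420-116148637 (Vipr2, 1421391_at), chr6:55451501-55501455 (Adcyap1r1, 1429022_at) and chr2:132369705-132385502 (Prokr2, 1440564_at), and Grp was read from probe set 1424525_at. Values are log2 expression and cannot be compared between probe sets, so levels are compared only within a gene. The median of all deposited values was 7.39, and a fold change with a level below it has an uncertain size. This holds for the Vip and Prokr2 folds below as well as for Prok2 and Vipr1, since their lower levels lie under that median. It holds in part for Grp and Vipr2, whose lowest hypothalamic means (6.98 and 7.28) also lie under it.

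The sequence just upstream of the transcription start is shown for the 4 genes that were higher in the SCN than in the rest of the hypothalamus and for which it is shown here, and for Adcyap1, which was not. Windows of the RefSeq table (GRCm38.p6) run from 250 bases before to 50 bases after the start. Those of 8 of the 9 listed genes were used, and Grp was left out of the search. Each window was searched on both strands for motifs of clock and cyclic AMP signalling: the E-box CACGTG, the D-box TTATGNAA, the cyclic AMP response element TGACGTCA and its core TGACG, which lies inside the full element. Of 32851 windows in the table, 7.15% held CACGTG, 3.38% held TTATGNAA, 1.79% held TGACGTCA and 20.8% held TGACG. The 250 bases before the start are printed 5′ to 3′ on the gene's own strand, in lower case with motif matches in capitals. They lie at chr10:5638968-5639217 (Vip, + strand), chr12:116077476-116077725 (Vipr2, + strand), chr6:99726393-99726642 (Prok2, - strand), chr2:132385448-132385697 (Prokr2, - strand) and chr17:93198767-93199016 (Adcyap1, + strand, the upstream of its 2 listed starts).
Vip: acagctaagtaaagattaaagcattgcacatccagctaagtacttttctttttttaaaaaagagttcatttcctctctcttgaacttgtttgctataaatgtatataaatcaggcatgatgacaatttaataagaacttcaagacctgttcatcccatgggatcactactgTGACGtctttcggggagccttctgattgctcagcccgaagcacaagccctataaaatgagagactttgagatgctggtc
Vipr2: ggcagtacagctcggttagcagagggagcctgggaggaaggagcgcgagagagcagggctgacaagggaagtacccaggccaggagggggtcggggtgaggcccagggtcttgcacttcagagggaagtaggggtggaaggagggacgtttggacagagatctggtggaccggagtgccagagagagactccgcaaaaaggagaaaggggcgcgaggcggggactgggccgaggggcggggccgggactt
Prok2: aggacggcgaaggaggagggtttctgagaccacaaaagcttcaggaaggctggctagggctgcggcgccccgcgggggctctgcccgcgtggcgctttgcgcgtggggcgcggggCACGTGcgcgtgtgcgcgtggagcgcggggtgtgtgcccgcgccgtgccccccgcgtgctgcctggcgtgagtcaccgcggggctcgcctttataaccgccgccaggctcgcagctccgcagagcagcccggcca
Prokr2: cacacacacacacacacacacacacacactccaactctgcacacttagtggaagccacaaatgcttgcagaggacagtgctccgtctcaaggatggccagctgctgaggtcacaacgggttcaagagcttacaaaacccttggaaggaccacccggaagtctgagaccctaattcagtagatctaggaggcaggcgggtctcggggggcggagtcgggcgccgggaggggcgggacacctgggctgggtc
Adcyap1: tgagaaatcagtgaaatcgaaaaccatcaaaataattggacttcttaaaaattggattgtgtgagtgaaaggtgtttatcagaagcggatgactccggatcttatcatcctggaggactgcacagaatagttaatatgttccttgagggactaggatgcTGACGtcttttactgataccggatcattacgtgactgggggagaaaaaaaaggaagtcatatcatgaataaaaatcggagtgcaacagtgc
The Vip window held TGACG 79 bases before the start, and the Adcyap1 window held it 91 bases before the start. In both it opens the same run of 10 bases, TGACGTCTTT, although windows of other pairs of these genes shared runs of up to 11 bases. The Prok2 window held the E-box CACGTG 135 bases before the start. The Vipr1 window held TGACG on the reverse strand, 13 bases before the start. No motif was matched in the windows of Vipr2, Prokr2, Adcyap1r1 and Nms. A match is a run of letters and not a measured binding site.

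On the chosen probe sets, all 8 genes except Vipr1 differed among the 52 regions (limma F test, Benjamini-Hochberg adjusted p under 0.05 with all genes counted, and a range of region means of at least 1 on the log2 scale). That is 7 of 8 genes, beside 60.3% of all genes, and by adjusted p alone it is 8 of 8, beside 95.1%. Vip had the widest range of the 8, 7.94 on the log2 scale or 245-fold between the SCN and the cerebellar lobe. Grp spanned 5.00, Prokr2 4.36, Adcyap1 4.07, Adcyap1r1 3.23, Vipr2 2.73 and Prok2 1.95, which was 0.91 with its probe sets averaged. The region means of Vipr1 spanned 0.59 (adjusted p = 0.0135), and all 52 lay below the median of all values. A second Vipr1 probe set of about the same brightness spanned 1.56, with its highest mean in the dentate gyrus (6.66), and had a Pearson r of 0.42 with the first, so the exception depends on the probe set. The SCN had the highest mean of the 52 regions for Vip, Vipr2, Prok2 and Prokr2, which is 4 of 8 genes beside 1.48% of all genes. Its rank was 3 for Grp, 5 for Adcyap1r1, 8 for Adcyap1 and 47 for Vipr1.

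**Figure D1:**
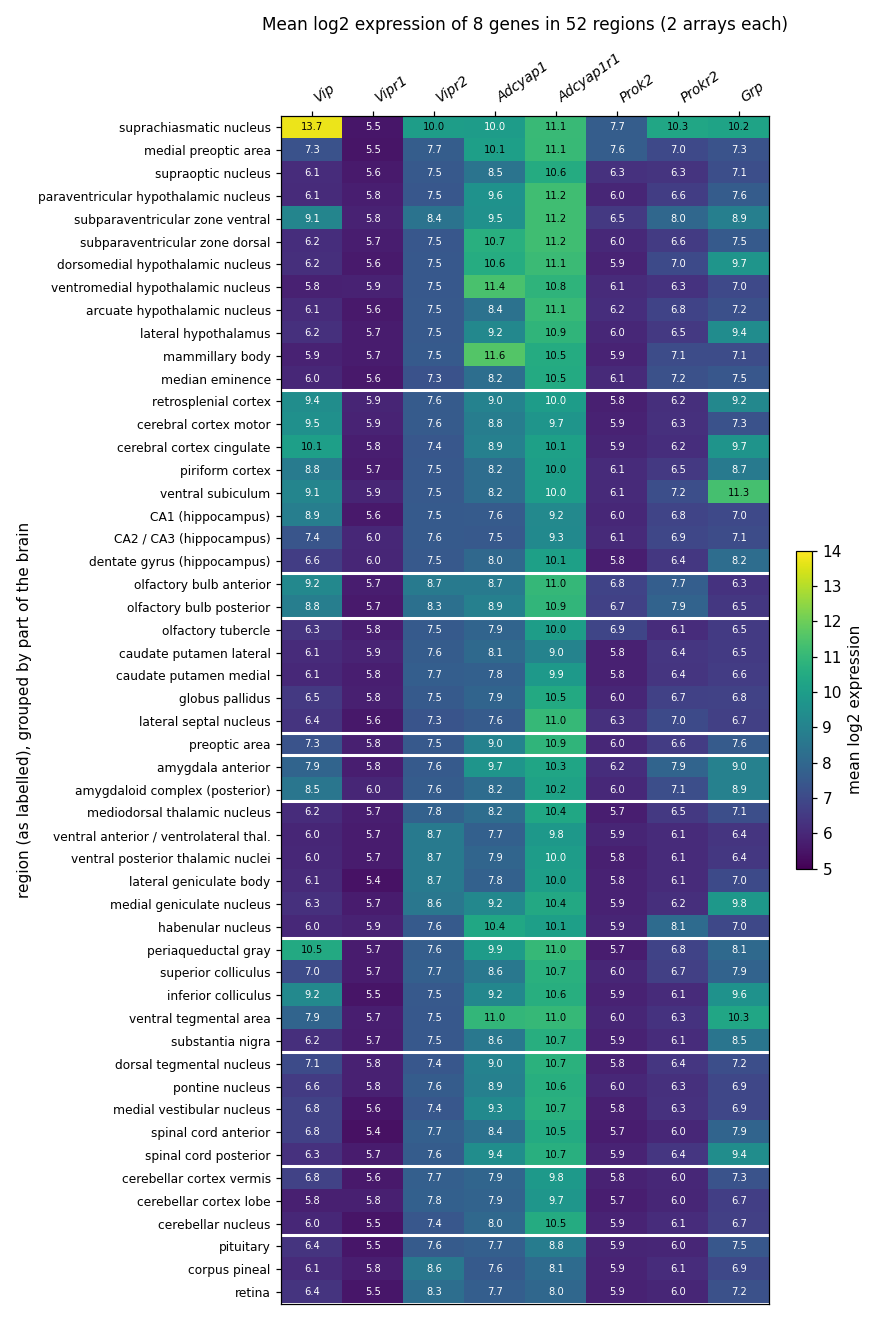
Heat map of the mean log2 expression (colour and printed value, 2 arrays each) of the 8 genes in columns and the 52 regions in rows, grouped by part of the brain with white lines between groups. Within the Vip column the SCN stands at 13.7, and the SCN also has the highest value of the columns Vipr2, Prok2 and Prokr2, while Adcyap1 is highest in the mammillary body (11.6) and Grp in the ventral subiculum (11.3). Colours may be compared down a column but not between columns.

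In the hypothalamus, Vip, Grp, Prok2 and the receptors Vipr2 and Prokr2 were higher in the SCN than in the mean of the 11 other regions. These 5 of 8 genes passed the test (limma, adjusted p under 0.05 and at least 2-fold), beside 2.03% of all genes called higher, and 0 of 8 were lower, beside 0.22%. Tissue punches measure the RNA of all cells together, so more cells of a type and more RNA per cell cannot be told apart. Both SCN arrays lay above every array of the 11 other regions for Vip, Vipr2, Prokr2 and Grp, which is 4 of 8 genes beside 5.63% of all genes, and below every such array for 0 of 8, beside 5.7%. For Vip, Vipr2 and Prokr2 they lay above every array of all 51 other regions, beside 0.632% of all genes.

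Vip, the neuropeptide of the ventral SCN, had 13.75 and 13.71 on the SCN arrays. In the 11 other hypothalamic regions its means ran between 5.82 in the ventromedial nucleus and 9.09 in the ventral subparaventricular zone. The groups did not overlap, and the difference was 7.28 ± 0.23 (SE), or 155-fold, with an adjusted p of 2.66e-34 (limma). Grp, a bombesin-like peptide, had 10.23 and 10.22 on the SCN arrays, against region means of 6.98 to 9.70 elsewhere in the hypothalamus. The highest of these was the dorsomedial nucleus, with arrays at 9.81 and 9.59, still below the SCN. The Grp difference was 2.38 ± 0.18 (SE), or 5.19-fold (limma, adjusted p = 2.95e-17).

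Prok2, the SCN output peptide, had 7.87 and 7.46 on the SCN arrays and averaged 6.24 over the 11 other regions. The medial preoptic area, with 7.54 and 7.74, lay inside the SCN range, and the next hypothalamic region, the ventral subparaventricular zone, had 6.56 and 6.45. The Prok2 difference was 1.43 ± 0.09 (SE), or 2.69-fold (limma, adjusted p = 2.86e-20). Of the 2 other Prok2 probe sets, both dimmer, one was 0.61 higher in the SCN than in the 11 regions and the other differed by -0.08. When the 3 probe sets were averaged the difference was 0.65 and no longer reached 2-fold.

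Vipr2, which encodes VPAC2, had 10.08 and 9.93 on the SCN arrays, against region means of 7.28 to 8.44 in the other hypothalamic regions. The 2 groups did not overlap, and the difference was 2.43 ± 0.09 (SE), or 5.39-fold (limma, adjusted p = 2.11e-30). Prokr2, the receptor of prokineticin 2, had 10.41 and 10.22 on the SCN arrays, against 6.31 to 8.00 elsewhere in the hypothalamus. Again no array of another hypothalamic region reached the SCN, and the difference was 3.45 ± 0.12 (SE), or 10.9-fold (limma, adjusted p = 1.38e-33). A second Prokr2 probe set gave 3.10 for the same difference, with its highest mean of the 52 regions in the SCN as well (10.11).

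For the PACAP pair and VPAC1 no difference between the SCN and the rest of the hypothalamus passed the test. Adcyap1 had 10.04 and 9.89 on the SCN arrays, within the range of 8.25 to 11.59 of the other hypothalamic means, and the difference was 0.17 ± 0.11 (SE; limma, adjusted p = 0.204). Adcyap1r1 had 11.08 and 11.09 there, against 10.51 to 11.24, with a difference of 0.15 ± 0.07 (SE; adjusted p = 0.0665). Vipr1 differed by -0.15 ± 0.11 (SE; adjusted p = 0.228) at levels close to the low end of the scale. For Adcyap1r1 the probe sets differed: the 2 others were 0.73 and 0.15 higher in the SCN than in the 11 regions, and the average of the 3 was 0.34 higher (limma, adjusted p = 0.00144), which is under 2-fold.

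**Figure D2:**
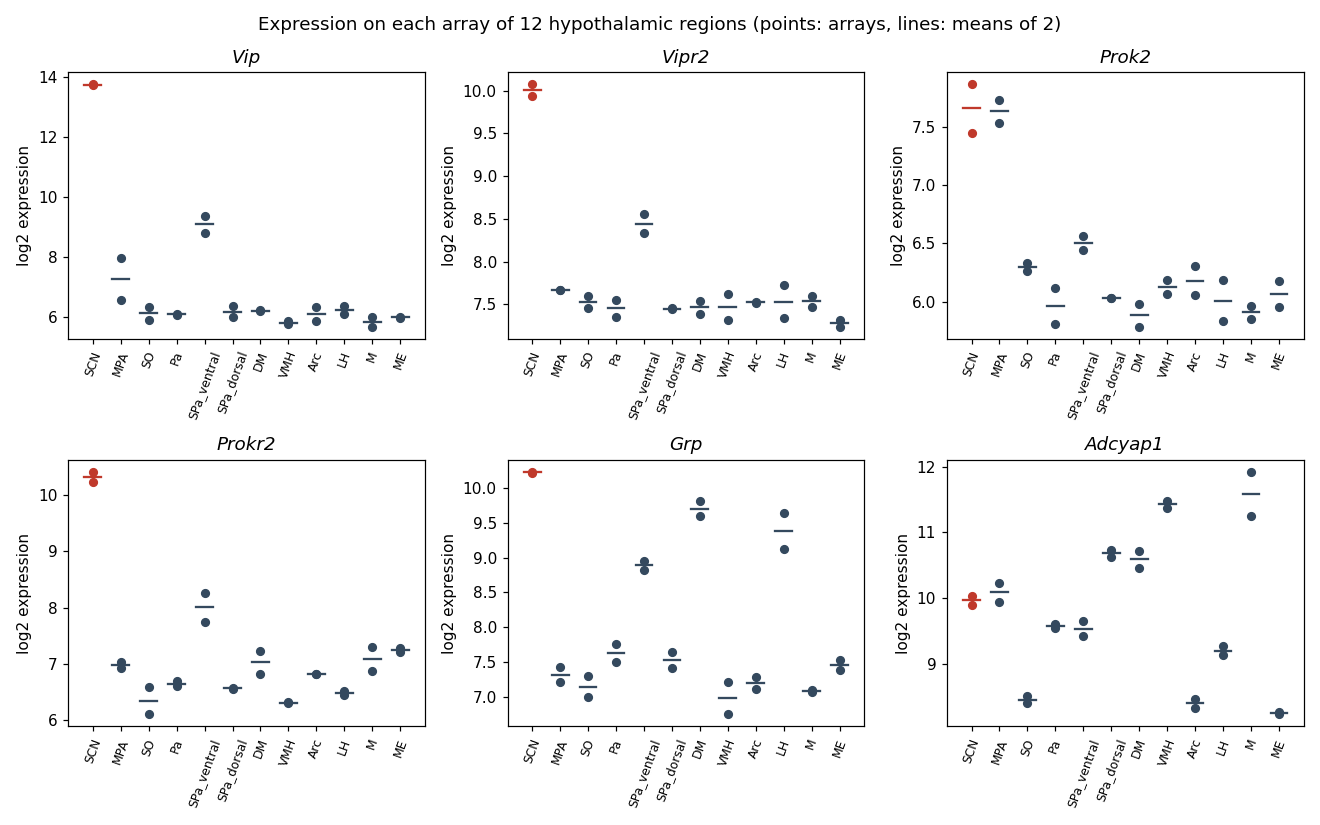
Log2 expression of 6 genes on each array (points) of the SCN, in red at the left, and of the 11 other hypothalamic regions, with lines at the means of 2 arrays. Vip, Vipr2, Prokr2 and Grp are highest on the 2 SCN arrays, Prok2 on the SCN arrays overlaps the medial preoptic area (MPA), and Adcyap1 is highest in the mammillary body (M) and ventromedial nucleus (VMH).

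The spread that these tests use is that between the 2 arrays of a region. When the 12 hypothalamic region means were taken as the samples instead, so that the spread between regions entered, Vip (adjusted p = 0.0135), Vipr2 (0.0135) and Prokr2 (0.0197) passed the threshold of limma, while Grp (0.287) and Prok2 (0.275) did not. They are 3 of the 9 genes, or 0.0495% of all genes, called higher in the SCN in that fit, beside Npy6r, Gadd45a, Dusp4, Sox8, Prex1 and Trmt9b, and 0 genes were called lower (243 higher and 2 lower at an unadjusted p under 0.05 and 2-fold).

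Markers of some other cell types were also higher in the SCN. Of the oligodendrocyte markers, 6 of 7 were higher there than in the 11 other regions, led by the myelin genes Mog (3.04 on the log2 scale), Ermn (2.59), Mobp (2.39) and Mag (2.28). Of the astrocyte markers 2 of 5 were higher (Gfap by 3.61 and Aqp4 by 1.11), and of the meningeal markers 3 of 8 (Igf2 by 2.24, Col3a1 by 1.53 and Col1a2 by 1.32). Of 6 markers of other hypothalamic neurons, Pomc was higher (1.31) and Pmch lower (-1.81). Of 2 magnocellular markers, Avp was higher (1.43). Of 6 anterior pituitary markers, Cga was lower (-1.15). Of 6 markers of ependyma and choroid plexus and 4 of photoreceptors, 0 were called in either direction. The summed oligodendrocyte level (log2 of the sum) was 15.60 in the SCN, against 13.60 to 15.60 in the other hypothalamic regions. The summed astrocyte level was 14.95, against 13.44 to 14.60, and the summed meningeal level was 12.75, against 10.40 to 13.90. The supraoptic nucleus matched the SCN in oligodendrocyte level, and Vip there was 6.13, Vipr2 7.52 and Prokr2 6.35. Of 16 genes known from SCN neurons and their clock, 9 were higher in the SCN and 0 lower, led by the homeobox gene Lhx1 (2.57), Rasd1 (2.52), the G protein regulator Rgs16 (2.44) and the homeobox gene Six6 (2.27), with a list median of 1.33 beside -0.05 over all genes tested. The part of these cell types in the differences of the 8 genes was not tested.

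Of 7 measured partner ligands and receptors (Grpr, Nmb, Nmbr, Nmu, Nmur1, Nmur2 and Prokr1), 0 were called higher and 0 lower in the SCN, with a median of -0.20. Grpr, the receptor for gastrin-releasing peptide, differed by 0.32 ± 0.08 (SE), below 2-fold. Of 11 other receptors of the same class B1 family as VPAC1, VPAC2 and PAC1, 0 were called in either direction (median -0.16). Of 23 genes of the cyclic AMP pathway, 1 was higher in the SCN, the phosphodiesterase gene Pde7b (1.74 ± 0.13, SE; limma, adjusted p = 7.3e-18), and the list median was 0.03.

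The ventral subparaventricular zone adjoins the SCN and receives its output, and it was the other hypothalamic region with the highest mean of Vip, Vipr2 and Prokr2. Against it alone, the same 5 genes were higher in the SCN, 5 of 8 beside 2.45% of all genes, and 0 of 8 were lower, beside 0.484%. Vip had 13.75 and 13.71 in the SCN, against 8.81 and 9.36 in the ventral zone, a difference of 4.64 ± 0.32 (SE; 25.0-fold; limma, adjusted p = 1.79e-18). Prokr2 was 2.31 ± 0.16 (SE), or 4.96-fold, higher and Vipr2 1.56 ± 0.13, or 2.95-fold, higher. Grp was 1.34 ± 0.24 (SE; 2.52-fold) and Prok2 1.16 ± 0.12 (SE; 2.24-fold) higher in the SCN. None of these arrays overlapped between the pair of regions, but the share of all genes that separate in this way was not counted. With 2 arrays against 2, such a separation carries little weight. Prok2 fell under 2-fold (0.95) when the first SCN array was left out, and it was 0.58 with the 3 probe sets averaged.

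Adcyap1 differed by 0.43 ± 0.15 (SE) between the SCN and the ventral zone, which was under 2-fold (limma, adjusted p = 0.0181). Adcyap1r1 (-0.14 ± 0.10, SE; adjusted p = 0.249) and Vipr1 (-0.32 ± 0.15, SE; adjusted p = 0.0763) did not pass the threshold on the chosen probe sets. The direction for Adcyap1r1 turned with the probe set: the 2 others were 1.04 and 0.35 higher in the SCN, and the average of the 3 was 0.42 higher (limma, adjusted p = 0.00435). The second Vipr1 probe set also turned, at 0.10. Measured against all 51 other regions, the ventral zone itself was higher in Vip (1.90 ± 0.23, SE), Prokr2 (1.36 ± 0.11, SE) and Grp (1.12 ± 0.17, SE), which is 3 of 8 genes beside 1.16% of all genes. The mean over the list of SCN genes was 10.10 in the SCN and 9.29 in the ventral zone, ranks 1 and 2 of the 52 regions. By the log2 of the summed level, as used for the other cell types, they were 14.60 and 13.84, ranks 3 and 15. Lhx1 stood at 9.17 in the SCN and 7.91 in the ventral zone. Oligodendrocyte markers were again higher in the SCN (6 of 7), as were 6 of 8 meningeal and 2 of 5 astrocyte markers. Of 6 markers of ependyma and choroid plexus, Tmem212 was lower in the SCN (-2.47). Of 6 markers of other hypothalamic neurons, Pomc was higher (2.47) and Pmch lower (-1.67). Of 23 cyclic AMP genes, Pde7b was higher (1.10) and Adcy7 lower (-1.34). The part of these cell types in the differences of the 8 genes was not tested.

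**Figure D3:**
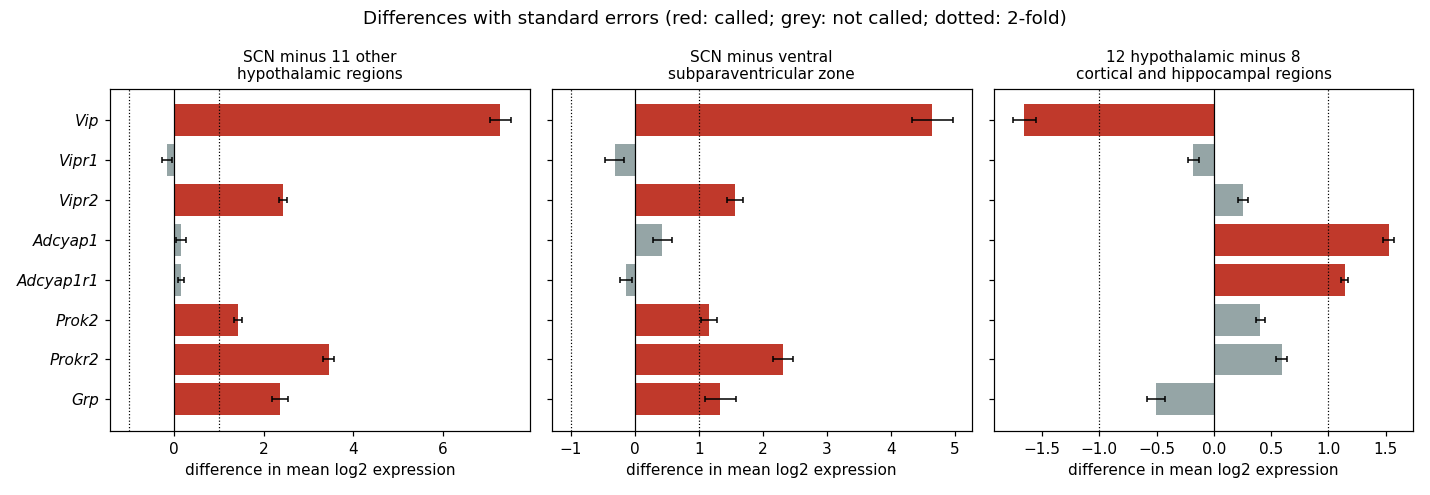
Differences in mean log2 expression (bars) with standard errors for the 8 genes in 3 comparisons, with red bars for genes at an adjusted p under 0.05 and at least 2-fold and dotted lines at 2-fold. Vip, Vipr2, Prok2, Prokr2 and Grp are red in both SCN panels, and in the comparison of 12 hypothalamic with 8 cortical and hippocampal regions Adcyap1 and Adcyap1r1 lie to the right (1.53 and 1.14) and Vip to the left (-1.65).

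Across all regions, each was set against the mean of the other 51, with adjustment over all genes and regions together. Of 416 pairs of a gene and a region, 44 were called higher, beside 2.12% of such pairs over all genes, and 46 lower, beside 1.39%. The SCN was higher in 6 of the 8 genes, beside 2.71% of all genes, and lower in 0 of 8, beside 0.522%. Outside it, the ventral subparaventricular zone in 3, and 22 other regions in 1 or 2. The comparisons of the SCN share its arrays, so the counts for the SCN repeat the differences given above.

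Vip was higher in 13 regions and lower in 20. After the SCN, the periaqueductal gray had the next highest mean, 10.47, but its 2 arrays stood far apart at 11.37 and 9.58. The difference from the other 51 regions there was 3.31 ± 0.23 (SE), and it was 2.42 or 4.20 when one or the other array was left out. That SE rests on a spread pooled over all regions, while the SD of the periaqueductal gray arrays was 1.26. The cingulate cortex (9.68 and 10.49), motor cortex (9.24 and 9.79) and retrosplenial cortex (9.18 and 9.66) came next, and their arrays overlapped. VIP is a known marker of a class of inhibitory cortical interneurons. The inferior colliculus (9.23), both samples of the olfactory bulb (9.19 anterior and 8.83 posterior), ventral subiculum (9.08), CA1 (8.86), piriform cortex (8.75) and posterior amygdala (8.52) made up the rest. The 20 regions where Vip was lower lay between 5.79 in the cerebellar lobe and 6.24 in the lateral hypothalamus. They included 9 of the 12 hypothalamic regions and 5 of the 6 thalamic and habenular regions, so that within the hypothalamus Vip was either high (SCN, ventral subparaventricular zone), at 7.28 with arrays of 7.97 and 6.58 (medial preoptic area), or low.

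Vipr2 was higher by 2-fold in 1 region, the SCN. Below it came the ventral posterior (8.71 ± 0.10), lateral geniculate (8.69 ± 0.19), ventral anterior and ventrolateral (8.67 ± 0.12) and medial geniculate (8.57 ± 0.20) nuclei of the thalamus (means ± SD, n = 2 arrays). The anterior olfactory bulb (8.70) and the pineal gland (8.60) were at a similar level, and the arrays of these regions overlapped. Each of the 6 was between 0.82 and 0.96 higher than the mean of the other 51 regions (SE 0.09), just under 2-fold. Vip in these 4 thalamic groups was at 5.96 to 6.26. The mediodorsal nucleus (7.80) and habenula (7.56) did not share the higher Vipr2 level.

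Adcyap1 was higher in 9 regions, 6 of them hypothalamic. It was highest in the mammillary body (11.25 and 11.93) and the ventromedial nucleus (11.37 and 11.49), whose arrays overlapped. The ventral tegmental area followed at 10.95 ± 0.05, then the dorsal subparaventricular zone at 10.68 ± 0.08, the dorsomedial nucleus at 10.59 ± 0.18 and the habenula, whose arrays were 10.37 and 10.36 (SD, n = 2 arrays each). The medial preoptic area (10.09), SCN (9.97) and periaqueductal gray (9.94) overlapped one another. A second, dimmer Adcyap1 probe set also had its highest mean in the mammillary body, and its 52 region means had a Pearson r of 0.97 with the first. The 9 regions with lower Adcyap1 included CA2/CA3 (7.52), CA1 (7.57), the lateral septum (7.59) and the 2 relay groups of lateral geniculate (7.81) and ventral anterior and ventrolateral nuclei (7.75). Means in the retina, pineal gland and pituitary were also low, between 7.56 and 7.72. The part of pituitary mRNA in the retinal Adcyap1 value was not tested.

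Adcyap1r1, the PAC1 gene, varied in the other direction: 0 regions were higher by 2-fold (1 with its probe sets averaged) and 6 were lower. The retina (8.01), pineal gland (8.14) and pituitary (8.78) were lowest, followed by the lateral caudate putamen (9.02), CA1 (9.22) and CA2/CA3 (9.26). The other regions lay between 9.68 and 11.24. The top 5 were the dorsal subparaventricular zone (11.24), ventral subparaventricular zone (11.23), paraventricular nucleus (11.22), dorsomedial nucleus (11.12) and SCN (11.09), and no neighbouring pair among them was separated on its arrays. This order depends on the probe set: the 2 others had their highest mean in the dorsomedial nucleus (9.93 and 8.90), with the SCN at ranks 3 and 8. The retina arrays held pituitary mRNA, whose part in the low retinal value was not tested.

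Prok2 was higher in 2 regions, the SCN (7.66 ± 0.30) and the medial preoptic area (7.64 ± 0.14; SD, n = 2 arrays each). With the 3 Prok2 probe sets averaged, 0 regions were called higher. The olfactory tubercle (6.88) and the olfactory bulb (6.79 anterior, 6.74 posterior) came next, at levels below the median of all values. Prokineticin 2 signalling is known for its role in olfactory bulb development. Prokr2 was higher in 6 regions: the SCN (10.31 ± 0.13), habenula (8.15 ± 0.60), ventral subparaventricular zone (8.00 ± 0.36), anterior amygdala (7.89 ± 0.31) and posterior and anterior olfactory bulb (7.87 ± 0.03 and 7.67 ± 0.20; SD, n = 2 arrays each). Neighbours in this order overlapped after the SCN except the posterior and anterior olfactory bulb, and each of the 5 stood more than 2 units below it. The medial preoptic area, with Prok2 near the SCN level, had Prokr2 at 6.98.

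Grp was higher in 13 regions and lower in 11. The ventral subiculum had the highest values, 11.18 and 11.48, above the ventral tegmental area at 10.20 and 10.49. The SCN arrays (10.23 and 10.22) lay within those of the ventral tegmental area. The medial geniculate nucleus (9.81), dorsomedial nucleus (9.70), cingulate cortex (9.65), inferior colliculus (9.59), posterior spinal cord (9.43), lateral hypothalamus (9.38) and retrosplenial cortex (9.21) followed, then both parts of the amygdala (8.95 anterior, 8.94 posterior) and the ventral subparaventricular zone (8.89). The anterior spinal cord had 7.91. Gastrin-releasing peptide is known as an itch signal in the dorsal spinal cord, but the sample names here say only posterior and anterior, and a link to that role was not tested. Grp and Vip were both higher in 7 regions (SCN, ventral subparaventricular zone, cingulate and retrosplenial cortex, ventral subiculum, posterior amygdala and inferior colliculus), and they parted in the olfactory bulb, where Vip was higher and Grp lower (6.33 anterior, 6.48 posterior).

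Set against cortex and hippocampus, the hypothalamus had more PACAP and PAC1 mRNA and less Vip. Adcyap1 averaged 9.81 over the 12 hypothalamic regions, with region means of 8.25 to 11.59, and 8.29 over the 8 cortical and hippocampal regions, with means of 7.52 to 8.98. The difference was 1.53 ± 0.05 (SE), or 2.88-fold (limma, adjusted p = 2.23e-37). Adcyap1r1 averaged 10.95 in the hypothalamus, with means of 10.51 to 11.24, against 9.80 in cortex and hippocampus, with means of 9.22 to 10.13. Those ranges did not overlap on the chosen probe set, but the share of all genes that separate in this way was not counted. The Adcyap1r1 difference was 1.14 ± 0.03 (SE), or 2.21-fold (adjusted p = 8.33e-41, limma). These 2 of 8 genes stand beside 1.92% of all genes called higher. Vip was the 1 gene of 8 called lower, beside 2.46% of all genes, with a median region mean of 6.16 in the hypothalamus and 8.97 in cortex and hippocampus. Its difference was -1.65 ± 0.10 (SE), or 3.15-fold lower (limma, adjusted p = 2.19e-22), although the SCN at 13.73 is among the hypothalamic regions.

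With the region means as the samples, Adcyap1 (adjusted p = 0.00691) and Adcyap1r1 (2.71e-06) passed the threshold of limma and Vip did not (0.144), beside 1.82% of all genes called higher and 2.4% lower in that fit. Adcyap1r1 was 0.91, under 2-fold, when its 3 probe sets were averaged, and the others alone gave 1.16 and 0.42. The other 5 genes were within 2-fold: Prokr2 differed by 0.59, Prok2 by 0.40, Vipr2 by 0.25, Vipr1 by -0.18 (-0.76 on its second probe set) and Grp by -0.51. Among class B1 receptors 1 of 11 was higher in the hypothalamus, the calcitonin receptor gene Calcr (3.43), and among the cyclic AMP genes Adcy7 was higher (1.38) and Adcy1 (-3.22) and Adcy9 (-1.45) were lower.

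Peptide and receptor levels were also set side by side over the 52 region means. These correlations are descriptions across regions that share arrays and normalization. Adcyap1 and Adcyap1r1 had a Pearson r of 0.59 (Spearman 0.71), and it was 0.58 without the SCN. Prok2 and Prokr2 had 0.65, and 0.44 without the SCN. Vip and Vipr2 had 0.34, and -0.02 without the SCN, so that their relation rested on that region. Vip and Grp had 0.49, and 0.42 without it.

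**Figure D4:**
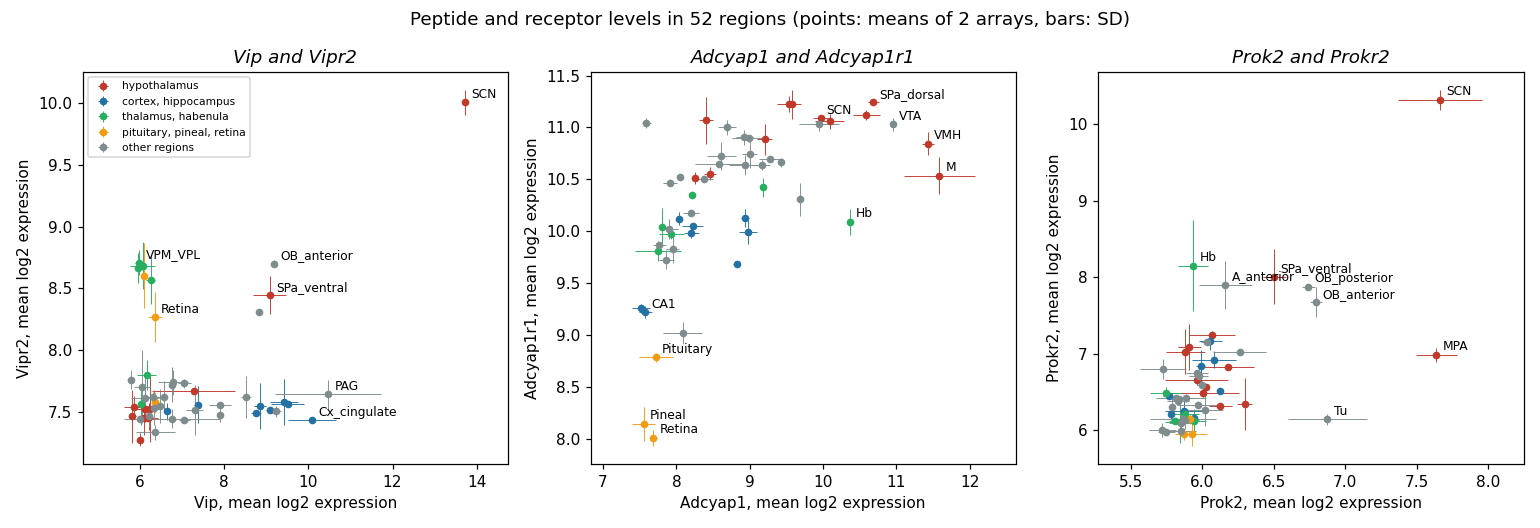
Mean log2 expression of 3 peptide genes (horizontal axes) and of a receptor gene for each (vertical axes) in the 52 regions, as means of 2 arrays with SD bars, coloured by part of the brain. The SCN stands alone at the upper right for Vip with Vipr2 and for Prok2 with Prokr2, while Adcyap1 and Adcyap1r1 vary together over many regions, with the pineal gland and retina at the lower left.

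Genes whose 52 region means had the highest Pearson r with each of the 8 were sought among 10509 genes with a range of at least 1. Genes with provisional symbols were left out of these. For Vip these were Tmem132d (0.60), Npy6r (0.59) and Hdac4 (0.59). For Vipr2 they were Rgs16 (0.66), Fam43a (0.64) and Tspan14 (0.60), and for Grp Glra3 (0.58), Doc2a (0.55) and Spin2c (0.55). Syt10, a synaptotagmin gene, came first for both Prok2 (0.74) and Prokr2 (0.78). Prok2 was next most like the homeobox genes Dlx2 (0.66) and Vax1 (0.66), and Prokr2 like Pou2f2 (0.77) and Akap17b (0.67). Adcyap1 was most like Usp29 (0.74), Zmym4 (0.73) and Spindoc (0.72), and Adcyap1r1 like the GABA receptor gene Gabrg1 (0.89), Usp29 (0.86) and Zwint (0.85). For Vipr1, at its low level, they were Mageb16 (0.63), AY074887 (0.62) and Cenpw (0.61). The Spearman coefficient was far lower for some of these: 0.19 for Vip with Npy6r, 0.36 for Vipr2 with Rgs16 and 0.43 for Prok2 with Syt10. It was also lower for Vipr2 with Fam43a (0.37) and for Prokr2 with Akap17b (0.40).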

How the data were processed

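Trizol was used to extract the pooled total RNA, which was biotin-labelled by a one-cycle procedure, per the labels' protocols. The authors deposited log2 expression values from RMA, per the submitters' processing notes (version not given in the sources used here), and these were used without further normalization. Of 45101 probe sets, 34945 had a single gene symbol in the platform annotation, 932 several and 9160 none, and 64 were controls. The brightest single-symbol probe set stood for each of 18193 genes.

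A mean per region was fitted with limma 3.58.1 in R 4.3.3 (52 residual degrees of freedom, prior 7.87). Tests were two-sided, with Benjamini-Hochberg adjustment across the 18193 genes, and a call needed an adjusted p under 0.05 and a 2-fold difference. The procedure was also run on simulated data with independent noise on each array and no differences between regions except planted ones. That run does not cover the spread between regions. Precision is limited by having 2 arrays per region. The median SE was 0.0878 for the SCN against 11 regions, 0.119 against the ventral subparaventricular zone and 0.0384 for hypothalamus against cortex. The 2 arrays of a region correlated at 0.972 to 0.998, lowest in the retina.

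The genes, lists and comparisons were chosen with earlier results of these data known. All 8 measured genes are named. Of the other lists, called genes are counted and up to 4 with the largest differences are named, and 3 genes per member are named for likeness. The genes called with region means as samples were named after their values were seen. The deposited replicate numbers were not used to pair arrays of different regions in the main fit. Promoter windows came from RefSeq (GRCm38.p6), and gene names from the platform annotation.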

Additional observations from a re-analysis of the deposited data

How the results depend on the processing

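Alternatives covered the normalization, the filter on dim genes, the variance model, the probe set rule, the fold limit, the regions and arrays used and the unit of replication. A pair of values turned sign, both for Adcyap1r1: -0.0062 for the SCN against the 11 regions with quantile normalization (limma, adjusted p = 0.950) and 0.42 for the SCN against the ventral subparaventricular zone with probe sets averaged (adjusted p = 0.00435), and the cause was not tested. With probe sets averaged, 1 gene of the 8 was higher in the hypothalamus than in cortex.

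Without the 2-fold limit, 4024 genes were higher and 4662 lower in the SCN than in the 11 regions, 3237 and 3868 than in the ventral zone, and 6211 and 5109 in the hypothalamus than in cortex, with 5 and 3 of the 8 genes. Regions called higher were then 1 for Vipr1, 10 for Vipr2, 17 for Adcyap1, 27 for Adcyap1r1, 7 for Prok2 and 13 for Prokr2. Over all regions there were 158577 pairs higher and 174791 lower, and 105 and 165 for the 8 genes. Of 24 likenesses, 9 moved with the Spearman coefficient. The hybridisation controls averaged 9.93 in the SCN and 9.29 to 11.21 in the 11 other hypothalamic regions, of which only 3 lay within 0.5 of the SCN. Against these 3 regions, 65 genes were lower in the SCN, beside 40 against all 11. With region means as the samples, 9 genes were higher and 0 lower in the SCN, 3 of the 8 were higher, and 0 of the 8 were lower in the hypothalamus than in cortex. Fewer samples enter that fit.

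Leaving out an array or a region gave 346 to 420 genes higher and 31 to 45 lower in the SCN than in the 11 regions, with 5 of the 8 higher each time, and 430 to 487 and 72 to 115 against the ventral zone, with 4 to 5 of the 8. For hypothalamus against cortex it gave 347 to 359 and 439 to 455, with 2 and 1 of the 8. Over all regions it gave 14571 to 20114 pairs higher and 9569 to 13191 lower, 43 to 44 and 42 to 47 for the 8 genes, and without pituitary, pineal gland and retina 8648 genes differed among regions.

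Same-numbered arrays of different regions had no common direction of deviation (median correlation -0.000385 over 1326 pairs of regions, -0.503 to 0.524). Of these pairs, 327 were above 0.1, so structure shared by some regions is not excluded. The numbers were not used to pair arrays in the main fit. With the replicate number as a block, 369 genes were higher and 40 lower in the SCN, 446 and 88 against the ventral zone, and 350 and 448 in the hypothalamus, and no call among the 8 changed. Groups of 2 arrays are too small to test an array as an outlier. Levels below the median of all values limit the size of the folds given for Vip, Prokr2, Prok2 and Vipr1, and in part of those for Grp and Vipr2.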

Other observations

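Of 7 partner ligands and receptors, 4 differed among the 52 regions by the limma F test, and of 11 class B1 receptors 7 did. Both shares are near the 60.3% of all genes, so the counts set neither list apart, and the levels below are descriptions. Nmb, which encodes neuromedin B, spanned 4.15 on the log2 scale with its highest mean in the posterior olfactory bulb (10.97). Nmbr, its receptor, was highest in the mediodorsal thalamus (8.85), Nmu in the posterior spinal cord (8.20) and Grpr in the supraoptic nucleus (8.27). The calcitonin receptor gene Calcr spanned 5.24 and was highest in the arcuate nucleus (10.46), the growth hormone-releasing hormone receptor gene Ghrhr was highest in the pituitary (10.83), the parathyroid hormone 2 receptor gene Pth2r in the medial geniculate nucleus (8.65) and Pth1r in the retina (8.55).

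All 23 cyclic AMP genes differed among regions, with a median range of 2.59. The stimulatory G protein gene Gnal spanned 6.30 and was highest in the olfactory tubercle (13.01). Of the adenylate cyclases, Adcy1 was highest in the cerebellar lobe (13.61) and Adcy5 in the medial caudate putamen (13.20). Prkar2b, a regulatory subunit of protein kinase A, was highest in the pineal gland (12.04).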
